A study of Mus musculus with 9 samples.

Results

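The small leucine-rich proteoglycans are secreted matrix proteins, and 10 genes of the family, Dcn, Bgn, Aspn, Lum, Fmod, Omd, Prelp, Kera, Ogn and Podn, were followed through osteoblast differentiation. They were chosen by name from the 40526 genes listed for every library. RNA-seq was done on cells of calvaria, the flat bones of the skull, from C57BL/6 mice between postnatal days 2 and 3, with 3 libraries at day 0 (confluent cells without differentiation), 3 at day 4 and 3 at day 7 of mineralization medium, which held ascorbic acid and β-glycerol phosphate. All cells shared 1 strain and had been expanded in culture, and the labels give no transgene or drug for any stage. The methods also name a Col1a1 reporter line and a wider age range of pups, and do not say which animals gave each library. Cells that had mineralized were freed with collagenase I before trypsin and the others with trypsin alone, so the stage and the way of harvest cannot be told apart. In bulk RNA, more cells of a type and more RNA per cell cannot be told apart either.

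Each protein of this family has a short core of leucine-rich repeats that binds collagen fibrils and controls how they grow and pack. Decorin and biglycan carry chains of chondroitin or dermatan sulfate, lumican, fibromodulin, osteomodulin and keratocan can carry keratan sulfate, and several members bind growth factors such as TGF-β. In bone, decorin and biglycan are among the abundant proteoglycans of the matrix, and osteomodulin is known from mineralized bone and dentin.

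On the deposited values, in which replicate 3 of day 0 is scaled down by 5 genes that took 19.0% of its reads, Omd rose 4.36-fold and Lum 1.76-fold from day 0 to day 7, and Podn fell to a 3.56-fold lower level. Ogn also passed the test as lower, with a change of -0.45 on the log2 scale, and its call was lost in 7 of 17 other settings while the change stayed between -0.65 and -0.34. Dcn, Bgn, Fmod, Aspn and Prelp did not pass, and Kera was at the limit of detection. In every library of day 4 Dcn and Bgn were above both other stages, an order that 8.07% of 12782 genes had, and for Bgn it was lost after scaling by the median of ratios.

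Of the 10 genes, 8 lie in 3 clusters with relatives of the same family (GRCm38, gene models of GENCODE M21). On chromosome 10, Dcn (chr10:97479609-97518143), Lum (chr10:97565128-97572703) and Kera (chr10:97606879-97613692) stand in a row on the plus strand, followed by Epyc, in 202.8 kb with no other coding gene. On chromosome 13, Aspn (chr13:49544443-49567565), Omd (chr13:49582462-49592822) and Ogn (chr13:49608046-49624501) follow Ecm2 on the plus strand in 119.7 kb. These 3 genes lie within the span of Cenpp, a centromere gene on the opposite strand, with which Aspn shares 0.297% of its exonic bases and Omd and Ogn share none. On chromosome 1, Prelp (chr1:133910304-133921414, minus strand) and Fmod (chr1:134037254-134048277, plus strand) lie with Optc in 151.1 kb. Prelp shares 9.68% of its exonic bases with the antisense gene Gm15851, and use of the strand in counting is not given in the sources used here. Podn (chr4:108014791-108096445, minus strand) and Bgn (chrX:73483602-73495933, plus strand) lie apart from the rest of the family. The span of Podn overlaps Scp2 and Gm23354 on the same strand and Mir6397 on the opposite one, and no exonic base of Podn is shared with another gene. The principal transcripts of Dcn, Bgn and Aspn have 8 exons, those of Lum, Fmod, Prelp and Kera have 3, and those of Omd, Ogn and Podn have 4, 7 and 13.

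Fold changes differed in size and sign among the members on chromosome 13, in size on chromosome 10 and little on chromosome 1. Between day 0 and day 7 the log2 fold changes of the chromosome 13 neighbours were 0.20 for Aspn, 2.12 for Omd and -0.45 for Ogn. Those of the chromosome 10 neighbours were 0.010 for Dcn and 0.82 for Lum. Aspn and Dcn were not called, and Ogn was called in 10 of 17 other settings. Differences between genes were not tested. On chromosome 1 the log2 fold changes of Fmod and Prelp were 0.20 and 0.30, and neither gene was called. Omd ends 15.2 kb before Ogn starts.

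**Figure D1:**
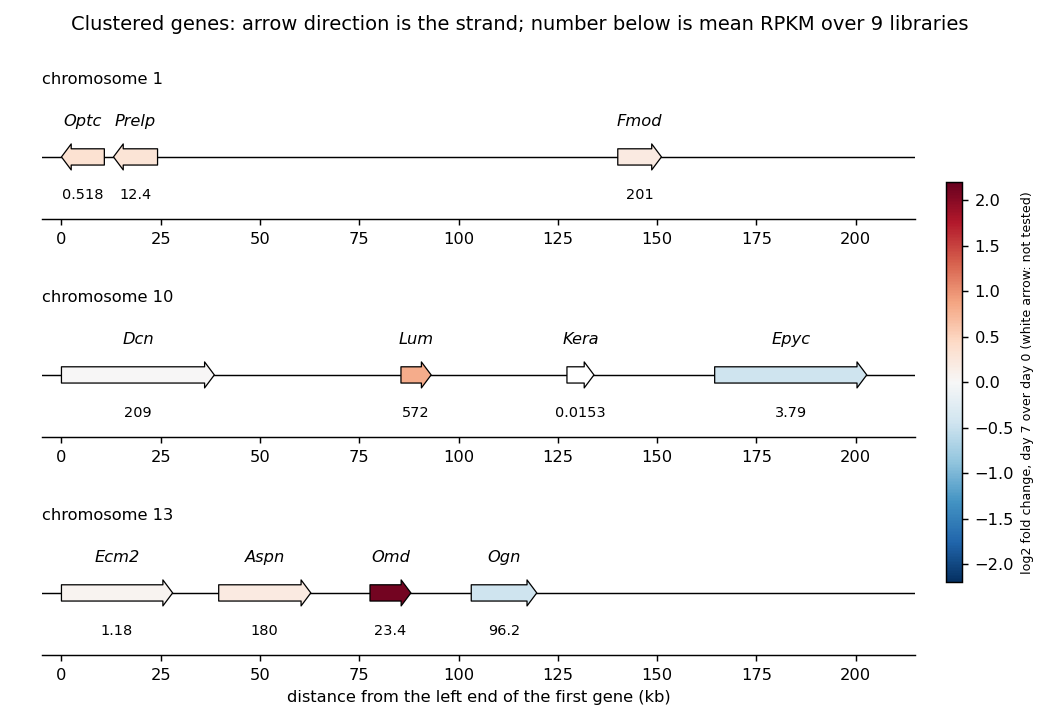
Maps of the 3 clusters, with distance in kb from the left end of the first gene on the x axis; arrows point along the strand, colour is the log2 fold change from day 0 to day 7 (white where not tested) and the number under a gene is its mean RPKM over 9 libraries. Omd is the darkest arrow, with a log2 fold change of 2.12, and its neighbours Aspn and Ogn are at 0.20 and -0.45.

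The promoters of the chromosome 13 neighbours are shown because these genes lie side by side and differed in course, and that of Podn because it had the largest fall. Each run is 300 bases from RefSeq (GRCm38.p6), 250 before and 50 after the annotated start, 5′ to 3′ on the strand of the gene. Capitals mark matches on either strand to the TATA box (TATAAA), the box of that name (CCAAT) or the RUNX core (TGTGGT), which 13.6%, 37.4% and 16.8% of the 32851 promoters of the table hold. The AP-1 motif (TGANTCA), which 7.81% of promoters hold, was also searched.
Aspn chr13:49544193-49544492, plus strand: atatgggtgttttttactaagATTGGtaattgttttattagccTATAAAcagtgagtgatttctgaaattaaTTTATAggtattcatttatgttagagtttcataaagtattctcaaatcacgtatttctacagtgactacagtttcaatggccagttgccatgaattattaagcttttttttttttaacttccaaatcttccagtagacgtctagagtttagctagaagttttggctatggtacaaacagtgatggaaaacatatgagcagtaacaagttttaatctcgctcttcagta
Omd chr13:49582212-49582511, plus strand: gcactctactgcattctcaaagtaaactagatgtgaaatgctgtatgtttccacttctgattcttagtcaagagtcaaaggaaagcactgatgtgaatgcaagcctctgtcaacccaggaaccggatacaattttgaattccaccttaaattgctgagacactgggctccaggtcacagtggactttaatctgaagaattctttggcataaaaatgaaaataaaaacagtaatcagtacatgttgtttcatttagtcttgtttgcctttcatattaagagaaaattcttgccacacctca
Ogn chr13:49607765-49608064, plus strand: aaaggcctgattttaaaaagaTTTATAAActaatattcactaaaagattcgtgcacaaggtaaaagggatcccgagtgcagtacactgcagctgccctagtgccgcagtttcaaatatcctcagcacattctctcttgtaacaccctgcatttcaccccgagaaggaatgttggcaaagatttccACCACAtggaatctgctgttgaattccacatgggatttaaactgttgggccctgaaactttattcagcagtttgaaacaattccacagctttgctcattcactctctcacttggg
Podn chr4:108031905-108032204, minus strand: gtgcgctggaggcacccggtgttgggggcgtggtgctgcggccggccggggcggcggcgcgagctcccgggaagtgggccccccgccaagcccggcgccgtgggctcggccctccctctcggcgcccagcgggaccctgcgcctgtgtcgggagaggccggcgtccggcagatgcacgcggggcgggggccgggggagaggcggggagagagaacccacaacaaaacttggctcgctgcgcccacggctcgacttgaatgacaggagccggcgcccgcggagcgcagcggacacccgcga
The window of Aspn held 2 TATA box matches, with left ends at positions -207 and -178 from the start, and a CCAAT match at -229. The window of Ogn held 2 TATA box matches that overlap each other, at -229 and -227, and a RUNX core match at -65. None of the motifs was found in the windows of Omd and Podn. The windows differed in composition, with 31% G and C in Aspn, 37.7% in Omd, 42.3% in Ogn and 77% in Podn, and with 3, 1, 4 and 41 CG dinucleotides. The table holds another start of Podn, with its window at chr4:108030937-108031236, where 63% of bases were G or C, 7 CG dinucleotides stood and none of the motifs was found. Both windows of Podn lie inside the GENCODE span given above, which reaches to chr4:108096445 on its 5′ side. Of the other members in the table, which are Bgn, Fmod, Prelp and Kera, the windows of Fmod and Prelp held 1 CCAAT match each, that of Kera held 3, and that of Bgn held none of the 4 motifs. A match describes the letters of a window and is no evidence of binding.

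The reads counted on genes, recovered from the deposited CPM (reads on a gene scaled to the total of the library), ranged from 7741204 to 14013219 before differentiation, from 32820610 to 37306090 on day 4 and from 10675858 to 15622755 on day 7. A group of 5 genes, among them Lars2 and Gm42418, took between 1.66% and 19.0% of the reads of a library, with the largest shares in replicate 3 of day 0 (19.0%) and replicate 2 of day 7 (12.1%), and every other gene is scaled down in those libraries. Scaling by the median of ratios over genes moved the median change of all genes tested from -0.11 to -0.0067 on the log2 scale, a shift of 0.10. Levels are RPKM, in which CPM are divided by the length of a gene model in kilobases, so that genes of different length can be compared. Day 7 was tested against day 0 with limma on log2(CPM + 0.5), and a gene was called at a Benjamini-Hochberg adjusted p under 0.05. Day 4 was deposited in tables of its own and entered no test, and its libraries were compared with the others by whether their values overlap.

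Of the 9 members that reached a mean CPM of 1 over the 6 libraries and were tested, 2 were called higher at day 7 (Omd and Lum) and 2 lower (Podn and Ogn), while 12.6% of the 12712 genes tested were called higher and 18.6% lower. These 4 of 9 stand beside 31.2% of all genes called in either direction. The median log2 fold change was 0.20 over the 9 members and -0.11 over all genes tested. At an unadjusted p under 0.05, 5 members passed, with Bgn as the fifth.

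**Figure D2:**
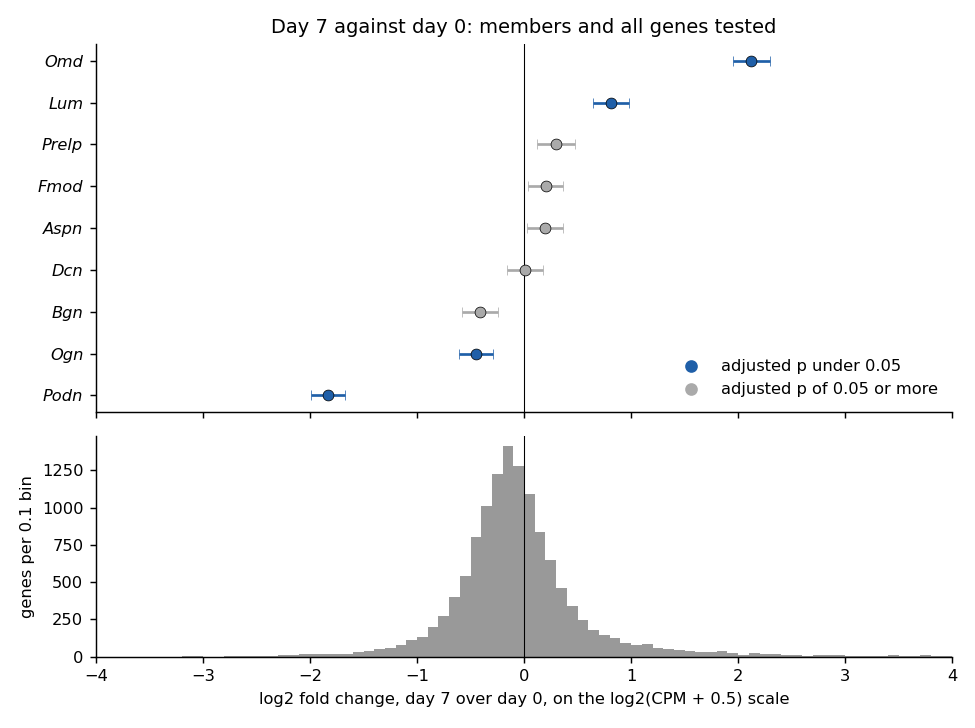
Upper panel, the change of the 9 members tested between day 0 and day 7, on the log2(CPM + 0.5) scale, with bars of 1 standard error, blue where the limma adjusted p was under 0.05. Lower panel, the histogram of all 12712 genes on the same axis, with its median at -0.11; Omd and Podn lie in its tails at 2.12 and -1.83.

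Omd encodes osteomodulin, also called osteoadherin, a keratan sulfate proteoglycan of mineralized matrix with acidic ends. Its RPKM was 9.03, 8.22 and 6.31 in the 3 libraries of day 0, 26.1, 24.03 and 31.7 at day 4, and 38.2, 31.8 and 35.1 at day 7. Each stage lay wholly above the one before it. From day 0 to day 7 the log2 fold change was 2.12 (SE 0.17), with a limma adjusted p of 2.0e-14, and 238 of the genes tested had a larger one. Day 4 was 3.48 times day 0 and day 7 was 1.28 times day 4. Omd was the only member whose day 7 libraries were all above those of day 4, an order held by 13.6% of the 12782 genes whose CPM averaged at least 1 over 9 libraries.

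Lum encodes lumican, a keratan sulfate proteoglycan that regulates the diameter of collagen fibrils. Its RPKM was 345, 384 and 290.5 at day 0, 865, 606 and 863 at day 4, and 675, 516 and 605 at day 7. Both later stages lay above day 0 in every library, and day 4 and day 7 overlapped. The level was 340 ± 47.1 at day 0 (SD, n = 3) and 599 ± 80.1 at day 7, which gave 0.82 on the log2 scale (SE 0.17) and a limma adjusted p of 0.00013. At day 4 the level was 2.29 times that of day 0. Lum had the highest RPKM of the 10 genes at every stage and stood at rank 52 of all 40526 genes by its mean over the 9 libraries.

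Podn encodes podocan, a member with an unusually long run of leucine-rich repeats that binds type I collagen. Its RPKM was 20.4, 21.6 and 21.7 at day 0, 10.7, 10.8 and 9.76 at day 4, and 6.70, 5.77 and 5.26 at day 7. Each stage lay wholly below the one before it. On the deposited values the day 0 libraries differed little, with a coefficient of variation of 3.35%. They lay further apart after scaling by the median of ratios, whose factors were 0.888, 0.889 and 1.142 for these libraries. By day 7 it had fallen, with a log2 fold change of -1.83 (SE 0.16) and a limma adjusted p of 1.76e-13, and 95 of the genes tested fell further. Day 4 was 0.490 times day 0 and day 7 was 0.568 times day 4. The libraries of day 4 were all below those of day 0 in 21.9% of 12782 genes, and those of day 7 all below day 4 in 25.0%.

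Ogn encodes osteoglycin, or mimecan, which is made by bone and muscle cells and is also found in the circulation. Its RPKM was 144, 138 and 92.8 at day 0, 95.1, 57.8 and 69.1 at day 4, and 90.5, 84.4 and 94.3 at day 7. In replicate 3 of day 0 the value lay within the range of day 7, so the stages overlapped. Day 7 against day 0 gave -0.45 on the log2 scale (SE 0.16), with a limma adjusted p of 0.0288. The call was made in 10 of 17 other settings. It was lost without replicate 1 of day 0 (adjusted p 0.18), replicate 2 of day 0 (0.158) and replicates 1, 2 or 3 of day 7 (0.0949, 0.113 and 0.0711), and the adjusted p was 0.000137 without replicate 3 of day 0, the library with the largest share of reads on 5 genes. After scaling by the median of ratios, the day 4 and the day 7 libraries were all below those of day 0.

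Bgn encodes biglycan, which carries 2 glycosaminoglycan chains and is abundant in bone matrix. Its RPKM was 191, 213 and 206 at day 0, 223, 246 and 234 at day 4, and 162, 163 and 135 at day 7. Day 4 was above and day 7 below both other stages in every library. The level was 203 ± 11.2 before differentiation, 234 ± 11.3 on day 4 and 153 ± 15.8 on day 7 (SD, n = 3). The log2 fold change from day 0 to day 7 was -0.41 (SE 0.17) with a limma adjusted p of 0.0538, and Bgn was called in 4 of 17 other settings. Without replicate 3 of day 0 its adjusted p was 0.014. After scaling by the median of ratios, Bgn overlapped between day 0 and each later stage, while day 7 still lay below day 4.

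Dcn encodes decorin, the namesake collagen decorator, which carries 1 chain. Its RPKM was 141, 212 and 166 at day 0, 315, 223 and 308 at day 4, and 208, 142 and 171 at day 7. The day 4 libraries were all above those of both other stages, which overlapped. Day 4 was 1.63 times day 0, and day 7 was 0.616 times day 4. Its log2 fold change from day 0 to day 7 was 0.010 (SE 0.17, limma adjusted p 0.974). Dcn and Bgn were the 2 members of 9 with day 4 above both other stages in every library, and no member had day 4 below both, against 3.76% of genes. Once scaled by the median of ratios, Dcn kept this order and Bgn did not.

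Aspn encodes asporin, a close relative of decorin and biglycan with a stretch of aspartate residues and without the usual sites for their chains. Its RPKM was 164, 223 and 129 at day 0, 193, 155 and 184 at day 4, and 188, 192 and 197 at day 7. All stages overlapped. On the deposited values the coefficient of variation was 27.8%, 11.1% and 2.35% in the order of the stages, and the difference in spread was not tested. Day 7 differed from day 0 by 0.20 on the log2 scale (SE 0.17, limma adjusted p 0.402). Under DESeq2 the adjusted p was 0.0313.

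Fmod encodes fibromodulin, which competes with lumican for a site on type I collagen. Its RPKM was 166, 182 and 186 at day 0, 238, 195 and 219 at day 4, and 259, 176 and 188 at day 7. The day 4 libraries were above those of day 0, by little (195 against 186 at the nearest), and they overlapped after scaling by the median of ratios. Between day 0 and day 7 its log2 fold change was 0.20 (SE 0.17, limma adjusted p 0.378), and it was 0.03 without replicate 1 of day 7. With voomWithQualityWeights the adjusted p was 0.0386.

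Prelp encodes prolargin, which has a basic end that binds heparan sulfate. Its RPKM was 7.87, 9.62 and 11.1 at day 0, 16.6, 14.6 and 16.0 at day 4, and 15.4, 8.73 and 11.8 at day 7. Day 4 lay above day 0 in every library, at 1.65 times its level, and day 7 overlapped both. The log2 fold change from day 0 to day 7 was 0.30 (SE 0.18, limma adjusted p 0.208). Without replicate 2 of day 7 it was 0.51 with an adjusted p of 0.0484. Gm15851 was listed at 0 in all libraries of day 0 and day 7, and no value for day 4 is given here.

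Kera encodes keratocan, a protein of the corneal stroma. It had 0 reads in each library of day 0, then 4, 1 and 2 reads on day 4, and 0, 0 and 1 reads on day 7. With a limit of 3 reads, the level that could go unseen lay between 0.0412 and 0.199 RPKM per library, which covers counting error only. The day 4 libraries were also the deepest, and no fold change was given.

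An exact permutation test, two-sided, of 3 libraries against 3 has a smallest p of 0.1, which was reached by Omd, Lum, Podn and Bgn. The exact p was 0.2 for Ogn, 0.4 for Fmod and Prelp, 0.5 for Aspn and 0.9 for Dcn. Lum, Omd and Podn were called in all 17 other settings of the test across genes. Their adjusted p ranged from 1.43e-24 to 0.00658, from 1.54e-64 to 1.24e-07 and from 1.34e-35 to 5.8e-06.

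**Figure D3:**
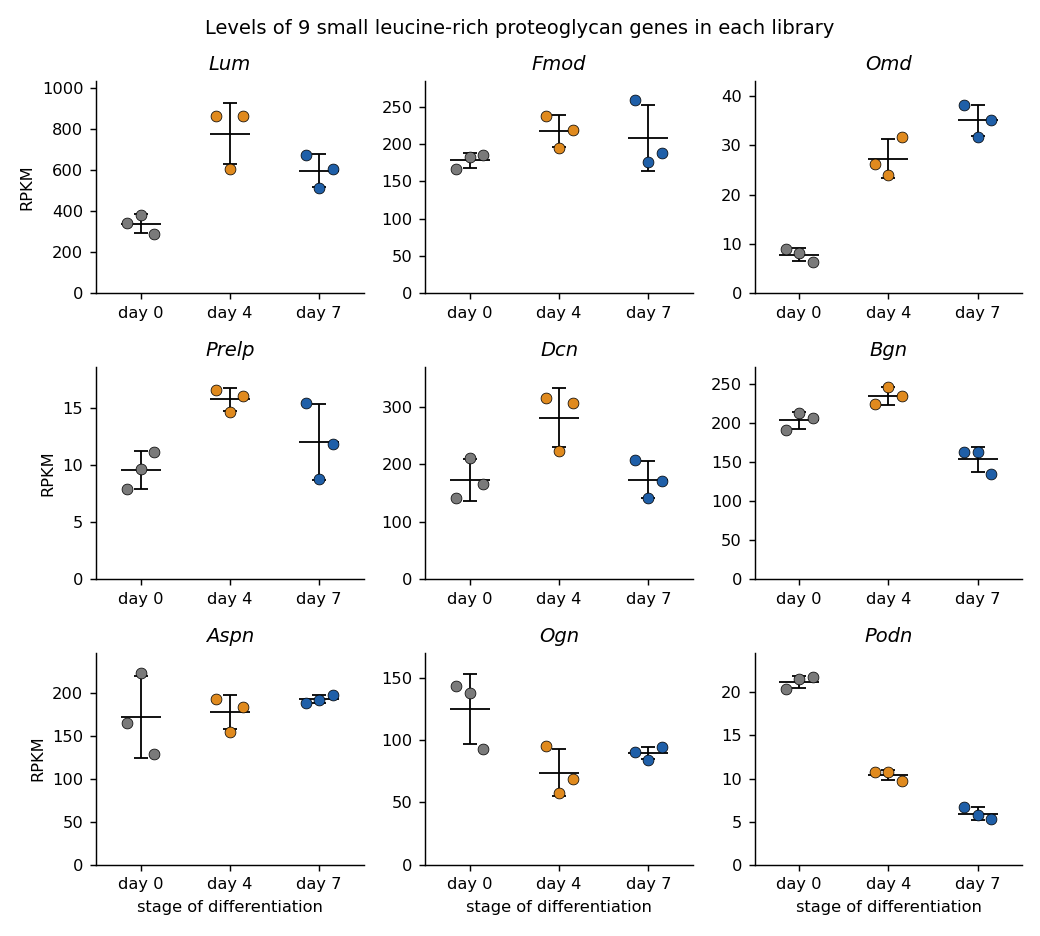
RPKM of 9 members in each library (points) by stage, with the mean and SD of 3 libraries as bars; each panel has its own axis from 0. Omd rose and Podn fell from stage to stage with no overlap. Dcn and, on the deposited scaling only, Bgn were highest at day 4 in every library. On the deposited scaling the points of Aspn ranged from 129 to 223 RPKM at day 0 and from 188 to 197 at day 7, and this difference in spread was not tested.

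By stage, 6 members (Dcn, Bgn, Lum, Fmod, Omd and Prelp) had all day 4 libraries above those of day 0, against 21.6% of 12782 genes, 1 (Podn) had them all below, against 21.9%, and Ogn and Aspn overlapped. From day 4 to day 7, 1 member was all above (Omd), 3 were all below (Dcn, Bgn and Podn), and 5 overlapped, against 13.6% of genes all above and 25.0% all below. With median-of-ratios scaling, Bgn and Fmod overlapped between day 0 and day 4 and Ogn was all below. Between day 0 and day 7, Lum and Omd were all above and Bgn and Podn all below, against 16.9% and 25.4% of the 12712 genes tested, and with that scaling Bgn overlapped and Ogn was all below. The median log2 difference of RPKM between stage means over the 9 members was 0.28 from day 0 to day 4 and -0.37 from day 4 to day 7, and over all genes it was -0.043 and -0.058. Values of day 4 and of the other stages come from tables made separately by the same formula, each library scaled to its own total. The day 4 libraries were also deeper than all others. In every comparison with day 4, the stage, the depth and the separate tables cannot be told apart.

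On the RPKM scale Lum stood first and Kera last at every stage. At day 0 the mean RPKM descended from Lum (340) through Bgn (203), Fmod (178), Dcn (173), Aspn (172), Ogn (125), Podn (21.2) and Prelp (9.55) to Omd (7.85). Fmod, Dcn, Aspn and Prelp each overlapped with the gene next in this order, and Lum, Bgn, Ogn and Podn did not. At day 7 the order was Lum (599), Fmod (208), Aspn (192), Dcn (174), Bgn (153), Ogn (89.8), Omd (35.02), Prelp (12.0) and Podn (5.91), and Fmod, Aspn and Dcn each overlapped with the next while the others did not. Between these stages Omd and Podn exchanged their places around Prelp. At day 4 Dcn (282) stood second after Lum (778), and it overlapped with Bgn (234), which overlapped with Fmod (217).

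The place of Bgn depends on the length used. The RPKM of Bgn divides by a gene model of 6099 bp, which is 2.52 times its principal transcript of 2419 bp. Per kilobase of the principal transcript, the CPM of Bgn reached 512, 591 and 386 at the 3 stages, and those of Lum 288, 660 and 507. On that scale, which was chosen after seeing the data, Bgn was the highest of the 10 genes at day 0, in libraries that did not overlap with those of Lum. At day 4 Lum and Bgn overlapped, and at day 7 Bgn was second. Differences between stages of 1 gene are not touched by its length.

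Summed over the 10 genes, the RPKM was 1229 ± 146 before differentiation, 1816 ± 247 on day 4 and 1468 ± 163 on day 7 (SD, n = 3). On the deposited values, the day 4 libraries (1532 to 1982) lay above those of day 0 (1108 to 1392). Those of day 7 (1319 to 1643) overlapped both. After scaling by the median of ratios, the sum at day 7 lay above that of day 0 in every library. The ratio of the sum at day 7 to that at day 0 ranged from 1.07 to 1.335 over the settings. The family took 0.375% of reads before differentiation, 0.510% on day 4 and 0.403% on day 7. Over the same stages, its reads per 100 reads of Col1a1 and Col1a2, the chains of type I collagen, were 11.1 ± 0.593, 6.70 ± 1.04 and 4.78 ± 0.110, with no overlap between stages. This ratio, like all those below but that of Bgn to Dcn, was chosen after seeing the data. It is taken within a library and does not change with the scaling between libraries.

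**Figure D4:**
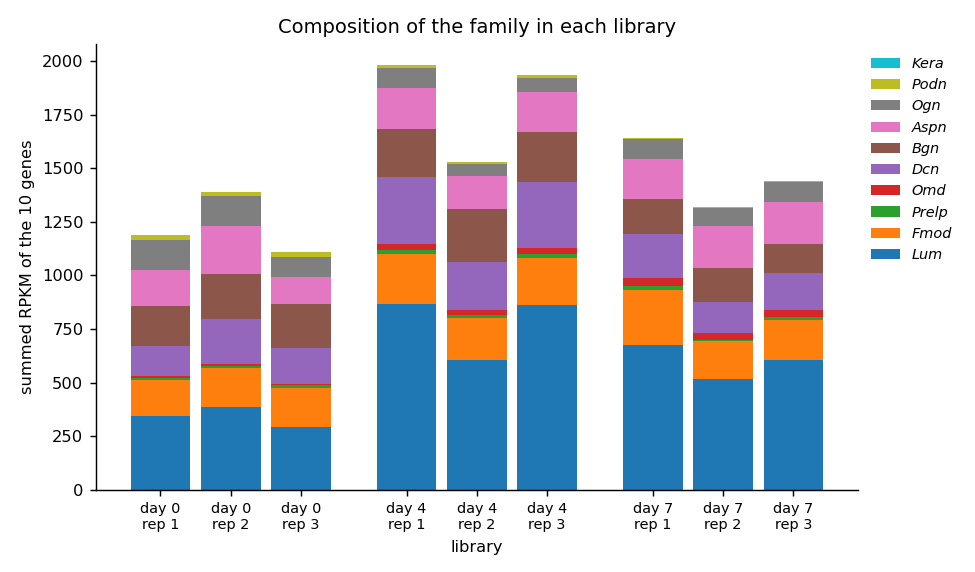
Stacked bars of the RPKM of the 10 genes in each of the 9 libraries, with the library on the x axis. The bars of day 4 (1532 to 1982) are all taller than those of day 0 (1108 to 1392) and overlap with those of day 7 (1319 to 1643). The segment of Lum at the base widens from 27.6% of the sum before differentiation to 42.6% on day 4 and 40.7% on day 7. Sums and shares depend on the gene lengths used in RPKM.

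Within the sum, Lum took 27.6% before differentiation (26.2 to 29.1 over libraries), 42.6% on day 4 (39.6 to 44.7) and 40.7% on day 7 (39.1 to 41.9). Omd took 0.640%, 1.51% and 2.39%, with no overlap between stages. Podn went the other way, with 1.74%, 0.583% and 0.403%, again with no overlap. Ogn took 10.1%, 4.05% and 6.15%, also without overlap (8.38 to 12.1, 3.57 to 4.798 and 5.51 to 6.54). The sum and these shares depend on the length used for each gene. Per kilobase of the principal transcript, Bgn (512) and not Lum (288) had the highest level at day 0.

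The ratio of Omd to Ogn, the chromosome 13 neighbours, was 0.0634 ± 0.00422 before differentiation, 0.383 ± 0.0965 on day 4 and 0.390 ± 0.0275 on day 7 (SD, n = 3). The later stages overlapped with each other, and both lay far above day 0. The ratio of Lum to Dcn, on chromosome 10, was 2.01 ± 0.386, 2.76 ± 0.0443 and 3.47 ± 0.198, with no overlap between stages. The ratio of Fmod to Lum, which share a site on collagen, was 0.532 ± 0.0935, 0.283 ± 0.0352 and 0.346 ± 0.0358 in the same order, and day 0 (0.475 to 0.640) lay above both later stages. The ratio of Bgn to Dcn was 1.199 ± 0.178, 0.858 ± 0.215 and 0.904 ± 0.209 on the RPKM scale, and the libraries of all stages overlapped.

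The genes with the courses most like those of the members were sought among 9100 genes whose CPM averaged at least 10, by the root mean square difference of log2(RPKM + 0.5) profiles centred over the 9 libraries. This is a description over 9 libraries that share stage, depth and scaling. With a pseudocount of 0.1 the same 3 neighbours were found for Dcn, Fmod, Omd and Aspn, 2 of 3 for Lum, Ogn and Prelp, and 1 of 3 for Bgn and Podn. The nearest to Omd were Fkbp11 (0.119), Shc2 and Pdgfa, and to Podn they were Svep1 (0.138), Fbn1 and Mcc. The nearest to Lum were C1qtnf1 (0.0842), Kctd11 and Itgbl1. Ogn was closest to Fignl1 (0.0805), Aurkb and Ncaph, and Bgn to Arid5b (0.0846), Kif1a and Gpm6b. The nearest to Dcn were Spry4 (0.137), Adamtsl4 and Trp53inp2, and to Prelp they were Spock2 (0.125), Hpcal1 and Spry4. The courses of Fmod and Aspn were closest to those of Ctif (0.0753), Mast4 and Adamtsl1, and of Brix1 (0.0664), Fbxw4 and Rap1b. Among the members themselves, Fmod and Prelp (0.213) and Dcn and Prelp (0.215) were the nearest pairs, and Omd and Podn (1.63) were the farthest apart.

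The genes that build, bind and cut these proteins were described from lists, each by its counts beside the 12.6% of all genes called higher and 18.6% lower. Of 9 other members of the family, 6 were tested, 1 was higher and none lower, with a median log2 fold change of 0.035, and without replicate 1 of day 7 Epyc was called lower. The 1 was Podnl1, the closest relative of Podn, at 11.2 ± 1.31, 40.6 ± 3.47 and 24.9 ± 1.91 RPKM at the 3 stages, a change of 1.15 on the log2 scale (limma adjusted p 6.73e-08) where Podn fell by 1.83. Epyc, beside Kera, had 3.52, 5.14 and 2.70 RPKM at the stages, and Optc, beside Prelp, 0.379, 0.648 and 0.529, and neither was called.

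Of 27 enzymes that build and sulfate chondroitin and dermatan sulfate, the chains of Dcn and Bgn, 10 were higher, 4 lower and 13 not called, with a median of 0.14. The number lower was 7 without replicate 3 of day 0 or without the highly variable genes, and 2 without replicate 2 of day 0 or replicate 2 of day 7. The largest rises were in the sulfotransferases Chst13 (2.86), Chst15 (2.47) and Chst11 (1.80), and the largest falls in Csgalnact1 (-1.79), which starts chains, Chst7 (-0.71) and Chpf (-0.56). Chst13 was at 0.031 RPKM at day 0, and its change ranged from 2.10 to 6.07 over the settings. Chst7 was not called without replicate 2 of day 0 (adjusted p 0.0545), nor Chpf without replicate 2 of day 7 (0.0936). Papss1, which makes the sulfate donor, had the highest level and was not called (-0.042, limma adjusted p 0.872). Of 11 keratan sulfate and tyrosine sulfation enzymes, 8 were tested, 1 was higher and 4 lower, with a median of -0.41, and 2 were higher without the filter on low values. Tpst2, which sulfates tyrosines such as those of Fmod, Omd and Lum, rose by 0.87, and B4galt4, Chst1 and Chst2 changed by -1.59, -1.001 and -0.74. B4galt1, at the highest level, was not called (-0.13).

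The collagens that the members bind were higher in 6 of 16 genes, lower in 2 and not called in 8, with a median of 0.11. Col24a1 (6.00), Col11a2 (3.46) and Col1a1 (1.35) had the largest rises and Col14a1 (-3.17) and Col2a1 (-2.16) fell. Col1a1 was at 2158 ± 369 RPKM at day 0 and 5475 ± 754 at day 7. Without the filter on low values 2 collagens were called higher, and Col1a1 was not among them (adjusted p 0.187), and without the highly variable genes 4 were lower. Col2a1 was not called Col2a1 with robust variances (0.0998). Of 29 other proteoglycans, 26 were tested, 10 were higher and 9 lower, with a median of 0.15. Ptprz1 (6.30), Spock1 (3.71) and Cspg4 (2.14) rose, Smoc1 (-1.80), Vcan (-1.53) and Col18a1 (-1.25) fell, and Gpc1, at the highest level, rose by 0.66. Spock1 was at 0.014 RPKM at day 0 and 0.92 at day 7, and its change ranged from 1.46 to 6.17 over the settings.

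Of 26 growth factors and receptors that the members bind, 25 were tested, 4 were higher, 6 lower and 15 not called, with a median of -0.22. Without replicate 3 of day 0, and likewise without the highly variable genes, 11 were lower, and with median-of-ratios scaling or DESeq2 7 were higher. Bmp2 (1.68), the ATP receptor P2rx7 (1.43) and Cd14 (0.95) rose, and the TGF-β receptor Tgfbr2 (-1.26), the integrin Itgav (-0.96) and the decorin receptor Met (-0.86) fell. P2rx7 was at 0.145 RPKM at day 0, and its change ranged from 0.69 to 2.11 over the settings. Itgb1, at the highest level, was not called (-0.22). Of 13 proteases, 11 were tested, 3 were higher and 3 lower, with a median of -0.21. Mmp13 (1.14), Ctsk (0.95) and Bmp1 (0.47), which cuts the propeptide of Bgn, rose, and Adamts5 (-2.44), Mmp3 (-1.22) and Mmp9 (-0.86) fell. Bmp1 was not called without replicate 1 (adjusted p 0.156) or replicate 3 (0.0879) of day 7. Mmp9 was lost in 7 settings, which were leaving out replicates 2 (0.0819) or 3 (0.0591) of day 0 or replicate 1 of day 7 (0.177), no filter (0.0586), median-of-ratios scaling (0.0723), edgeR (0.0941) and DESeq2 (0.0941). Mmp2, at the highest level, was not called (-0.21).

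**Figure D5:**
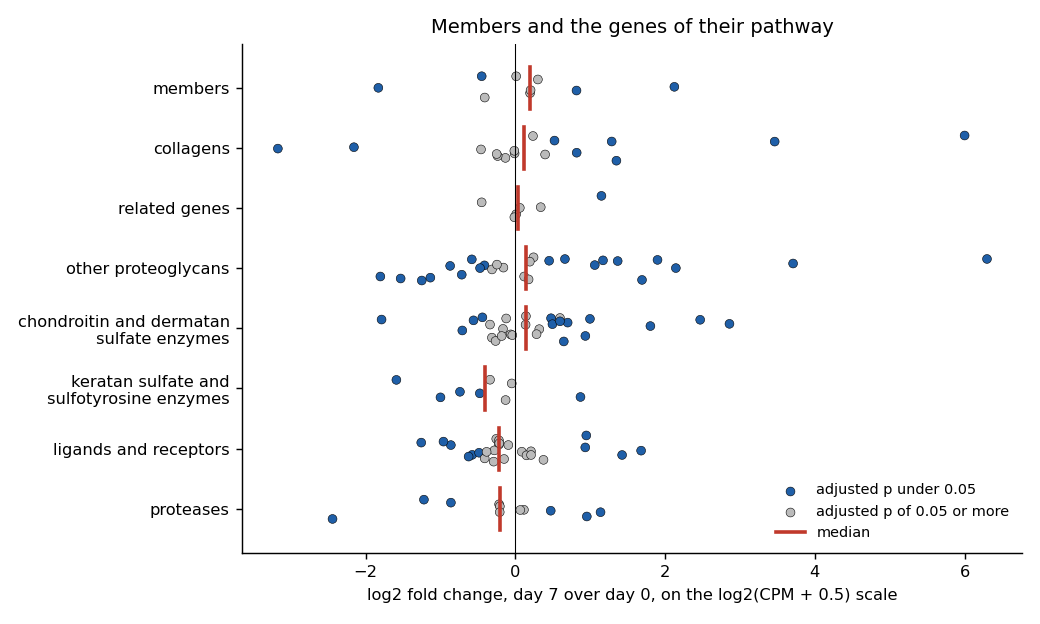
Changes between day 0 and day 7, on the log2(CPM + 0.5) scale, of the tested members and of the tested genes in 7 lists, 1 point per gene, blue where the limma adjusted p was under 0.05, with the median of each list as a red line. The medians lie between -0.41 and 0.20, while single genes reach from -3.17 (Col14a1) to 6.30 (Ptprz1).

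The cells carried osteoblast markers, of which 7 of 8 were called higher at day 7 and none lower. Of all 12712 genes tested, 12.6% were called higher and 18.6% lower. Their summed RPKM was 2942 to 3390 before differentiation, 10760 to 12980 on day 4 and 11020 to 14370 on day 7. Some markers of other cells also differed between the stages, and their counts stand beside the same shares of all genes. All 10 macrophage markers were higher, with sums of 49.9 to 83.8, 98.2 to 109 and 103 to 135. Of 10 chondrocyte markers, 9 were tested, 3 were higher and 4 lower, and the sum was 179 to 505, 144 to 247 and 184 to 294. Of 4 tendon markers 1 was higher and 3 were lower, with sums of 161 to 208, 162 to 188 and 90.1 to 125. Of 10 fibroblast and progenitor markers, 7 were tested, 1 was higher and 3 were lower, with sums of 147 to 174, 210 to 243 and 135 to 141. Of 8 osteoclast markers, 4 were tested, 3 were higher and 1 lower, and Ctsk made up most of the sum of 102 to 134, 238 to 244 and 234 to 244. Of 8 endothelial markers 2 were tested, with 1 higher and 1 lower, the sum was at most 1.94 and Emcn was at 0. Of 8 adipocyte markers 2 were tested and none was called, the sum was at most 5.24 and Cidec, Lep and Retn were at 0. Of 8 muscle markers 2 were tested and both were higher, with a sum of at most 10.5. Their part in the courses of Omd, Lum, Podn, Ogn and the other members was not tested.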

How the data were processed

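RNA-seq libraries of calvarial cells at day 0, day 4 and day 7 were mapped to stage and replicate by their labels. RNA was depleted of ribosomal RNA. The authors aligned reads to GRCm38 (Ensembl release 76 in the methods) with STAR 2.0.4b and counted unique reads per gene with featureCounts (version 1.45 in the processing notes, written 1.4.5 in the methods). The deposited CPM values give a gene's reads relative to all reads on genes of its library, with no TMM factor. The deposited RPKM values are CPM divided by the length of a gene model. Day 0 and day 7 share tables and day 4 has its own, with 40548 and 40526 genes. Each column was matched to a sample by its name.

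Reads were recovered from the CPM, whose values equalled whole reads in 100% of cases. The tolerance was 0.02 reads plus a small fraction of the count, so the check is weak for genes with many reads. The difference of day 7 from day 0 was fitted by limma 3.58.1 (R 4.3.3, mean-variance trend) to log2(CPM + 0.5) of 12712 genes whose CPM averaged at least 1 over 6 libraries, with Benjamini-Hochberg adjustment over all of them. The filter left out 11075 genes with reads. This log scale understates changes of low genes. Variances were shrunk to the trend with 42.9 prior and 4 residual degrees of freedom. Replicates are not tied to animals, so p-values measure the spread between these libraries only. The script was tested on simulated data. Levels are RPKM, and members were also tested one by one by exact permutation in SciPy 1.17.1.

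Alternatives were pseudocounts of 0.1 and 1, no filter, the RPKM table, median-of-ratios scaling, robust variances, a replicate block, leaving out each library, and edgeR 4.0.16, DESeq2 1.42.0 and voomWithQualityWeights on the recovered reads. After seeing the data, a fit without 5 highly variable genes and the length of the principal transcript were added. The members and lists were chosen with earlier results of these data known. Named in the text are all members, the 3 largest rises and falls past the threshold and the highest gene of each list, and the 3 genes nearest to each member in course, and Epyc, Optc and Gm15851 were added for their position after their values were seen. Marker lists were for osteoblasts, chondrocytes, tendon, fibroblasts and progenitors, macrophages, osteoclasts, endothelium, adipocytes and muscle. Promoters came from RefSeq (8 of 10 members matched, Dcn and Lum did not) and gene models from GENCODE M21.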

Additional observations from a re-analysis of the deposited data

How the results depend on the processing

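Lum, Omd and Podn kept their direction and their call in all 17 alternatives. The 2 members called lower became 1 without the filter on low values and on the RPKM table, since Ogn was lost, and numbered between 1 and 3 when single libraries were left out. The 2 called higher became 4 with voomWithQualityWeights, which added Fmod and Prelp. The Bgn to Dcn ratio of 1.199, 0.858 and 0.904 at day 0, day 4 and day 7 became 2.55, 1.83 and 1.92 with the length of the principal transcript, and its leave-one-out ranges were 1.12 to 1.30, 0.735 to 0.933 and 0.784 to 0.967. The change of Dcn of 0.010 became -0.027 without the highly variable genes and ranged from -0.13 to 0.17 when single libraries were left out. That of Papss1, -0.042, became 0.068 with median-of-ratios scaling, 0.063 with edgeR, 0.058 with voomWithQualityWeights and 0.065 with DESeq2, and ranged from -0.20 to 0.064 when single libraries were left out.

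Samples that share a replicate number did not deviate together between day 0 and day 7 (correlations -0.017, -0.18 and -0.44, each best matched by another number). Deviations from the mean of 3 libraries per stage cannot decide whether cultures that share a number had a common source, so pairing is unknown. With the number as a replicate block, 2 members stayed higher and 2 lower, and 3413 genes in all were called against 3971. Without replicate 3 of day 0, 6330 genes were called, 25.8% of them higher against 40.3% as reported, and with voomWithQualityWeights 6120 were, 51.4% of them higher. That share was 52.1% with median-of-ratios scaling, 51.5% with edgeR and 52.6% with DESeq2. It was 50.1% and 50.7% without replicates 1 and 2 of day 0. The cause of these shifts was not tested. Depth limits Kera, and no test of day 4 was made.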
